A study of Mus musculus with 10 samples.

Results

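The small nucleolar RNA (snoRNA) genes of the mouse testis were followed on days 4 and 7 after birth (P4 and P7) in wild-type (WT) samples and in samples labelled as a knockout of Lsm7 (cKO). The genes were chosen by name alone, as every row of the gene count table named Snord or Snora with a number. In all, 110 rows of 25239 carried such a name, 74 Snord and 36 Snora, and the 94 of them with at least 1 read in any library are described here, 63 Snord and 31 Snora. Of these, 70 passed the filter on low counts and were tested, and 24 were not.

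Total RNA was taken from testis of C57BL/6 mice with TRIzol and sequenced from TruSeq libraries. At each stage there were 2 WT and 3 cKO libraries, and the genotype label of the cKO libraries was Lsm7-flfl-stra8, which names floxed Lsm7 and Stra8, a gene switched on in germ cells by retinoic acid; what carries the Stra8 term is not given in the sources used here. The labels gave germ cell as the cell type, but the protocol had no sorting step. Markers of Sertoli cells (Sox9, Amh, Wt1, Rhox8), which nurse the germ cells, summed to between 1069 and 1778 CPM in every library (CPM, counts per 1 M reads, scaled with TMM factors), and markers of peritubular and stromal cells to between 1935 and 5676 CPM, so the RNA came from more than germ cells. The 7 germ cell markers (Ddx4, Dazl, Dppa3, Sall4, Gfra1, Zbtb16, Kit) summed to between 153 and 253 CPM at P4, to 1314 and 1304 CPM in the P7 WT libraries and to between 762 and 799 CPM in the P7 cKO libraries. Dazl held the largest part of the P7 sums, at 849 and 850 CPM in WT against 402, 376 and 400 in cKO. Ddx4 and Kit were also lower in each P7 cKO library, while Dppa3, Sall4, Gfra1 and Zbtb16 overlapped between the genotypes. The part of the cell type markers in the results below was not tested. In bulk tissue, fewer cells of a type and less RNA per cell cannot be told apart. Lsm7, a subunit of the ring that binds the end of U6 RNA, was itself read at 25.7 to 36.2 CPM in WT libraries against 20.3 to 50.5 CPM in cKO libraries and passed the test at neither stage (log2 fold change 0.58 ± 0.30 (SE) at P4 and -0.13 ± 0.37 at P7). Its row counts the whole gene and does not show whether floxed exons were lost, so cKO below stands for the libraries with that label. The labels do not say whether libraries came from separate animals, and the p-values therefore cover only the spread among these libraries, which may be technical.

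A snoRNA guides the chemical modification of another RNA, mostly ribosomal RNA, by base pairing. Box C/D snoRNAs (Snord) carry a C box and a D box, bind fibrillarin (Fbl), Nop56, Nop58 and Snu13, and direct methylation of the ribose. Box H/ACA snoRNAs (Snora) end in a short tail behind the letters ACA, bind dyskerin (Dkc1), Nhp2, Nop10 and Gar1, and direct the change of uridine to pseudouridine. In mammals most lie in introns of other genes, often genes of ribosomal proteins or noncoding RNAs, and are cut out of the spliced intron and trimmed. A few, such as Snord118 and Snord13, are made from promoters of their own.

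Sequences from GENCODE release M21 (GRCm38) were matched to 92 of the 94 genes. Most of the genes that passed the test in some comparison, and the gene with the most reads, are printed as DNA, 5′ to 3′, since their boxes and base composition are referred to with the results. The capitals mark the C box TGATGA in the first 25 bases, the D box CTGA in the last 15 bases, or ACA in the last 8 bases.
Snord96a: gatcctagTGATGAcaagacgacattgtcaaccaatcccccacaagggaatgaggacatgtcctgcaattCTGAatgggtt
Snord4a: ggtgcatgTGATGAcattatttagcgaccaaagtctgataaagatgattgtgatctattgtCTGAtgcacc
Snord69: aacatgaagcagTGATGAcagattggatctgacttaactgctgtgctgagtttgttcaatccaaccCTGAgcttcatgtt
Snord73a: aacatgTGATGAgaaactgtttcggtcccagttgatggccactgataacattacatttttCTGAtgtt
Snord72: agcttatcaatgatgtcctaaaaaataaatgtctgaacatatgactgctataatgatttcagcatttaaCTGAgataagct
Snord52: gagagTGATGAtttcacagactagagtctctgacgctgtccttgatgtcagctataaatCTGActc
Snord98: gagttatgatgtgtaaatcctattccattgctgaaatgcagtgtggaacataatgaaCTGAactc
Snora41: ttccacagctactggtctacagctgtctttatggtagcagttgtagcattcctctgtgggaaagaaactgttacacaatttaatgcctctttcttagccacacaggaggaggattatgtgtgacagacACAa
Snora20: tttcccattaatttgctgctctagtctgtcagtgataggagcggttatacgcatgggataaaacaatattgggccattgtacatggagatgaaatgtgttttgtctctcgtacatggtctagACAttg

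The letters followed the names. Read on the strand of the gene, TGATGA stood in the first 25 bases of 39 of 62 box C/D genes with a sequence (62.9%) and of 0 of 30 box H/ACA genes, and CTGA stood in the last 15 bases of 58 (93.5%) and 2 (6.67%). ACA stood in the last 8 bases of 28 of 30 box H/ACA genes (93.3%) and of 7 box C/D genes (11.3%). Box C/D genes were 64 to 238 bases long with a median of 77.5, and box H/ACA genes 127 to 196 bases with a median of 132.5. GC content ran from 29.6% in Snord72 to 65.1%. The table's own exon was often shorter than the GENCODE gene, at under 80% of its length in 22 of the detected genes, and for Snord98 it held 28 of 65 bases.

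The snoRNA genes drew few reads. Over the 10 libraries they held 37070 of 338.16 M reads. The libraries held 28.8 to 41.8 M reads each, and the snoRNA genes took between 88.4 and 133.6 reads per 1 M of them, with 72 to 87 of the genes read in a library. The 12 genes with the highest level held 53.2% of the snoRNA reads, 65 genes were read in all 10 libraries, and 27 had fewer than 50 reads in all. A gene with no read was below 0.00887 counted reads per 1 M, the level of 3 reads over all libraries, a limit that covers counting error only. That limit does not measure how much of the snoRNA the testis held. How well these libraries captured RNAs this short, and whether reads shared by overlapping genes were counted, was not tested.

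Many of the genes with no read overlapped another gene. Of the 16 named genes with no read, 11 overlapped an exon of another gene in the table, among them all 5 that lie in an exon of their host, such as Snora24 in Snhg8 and Snora26 in Dancr. The pair of rows for the imprinted Snord116 cluster (Snord116l1, Snord116l2) overlapped each other at all 10 loci and had no read. Snord14a had no read and overlapped Cfap157. The other 5 overlapped nothing: Snora35, Snord14d, Snord61, Snord90 and Snord118, the U8 RNA needed to mature the large ribosomal subunit. Snord13, which is needed for acetylation of the small subunit RNA, had 6 reads. Only 2 detected genes overlapped an exon of another gene, in both cases a microRNA: Snora34 (191 reads) and Snord33 (1 read).

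Hosts held nearly all the detected genes. By the table's coordinates, 31 lay within ribosomal protein genes, 21 within long noncoding RNA genes and 39 within other genes, in 66 distinct hosts, and Snord104, Snord89 and Snord13 had no host in the table. Rpl13a and Snhg12 held 4 each, and Rpl23a and 2410006H16Rik 3 each. Per base of exon, a snoRNA gene had a median of 3.36% of the reads of its host over the 68 tested genes with reads in a host. Snora78, within Snhg9, was alone above its host at 358.9%, a value that rests on 117 reads beside 38 of the host, and Snord99 in Snhg12 (95.2%), Snora43 in Snhg7 (79.9%), Snord52 in 1110038B12Rik (74.1%) and Snord69 in Gnl3 (71.4%) came next. The table cannot tell reads of a trimmed snoRNA from reads of the unspliced intron around it.

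Snord96a, in an intron of Rack1, had the highest level in 9 of 10 libraries and the highest level per length, 162.0 CPM per kb. It stood at 12.2 and 13.3 CPM in the P4 WT libraries, at 14.1, 12.1 and 11.1 in P4 cKO, at 14.2 and 13.7 in P7 WT and at 11.03, 13.9 and 10.5 in P7 cKO. These ranges overlapped at P4, and the log2 fold change of cKO against WT was -0.03 ± 0.22 (SE) at P4 and -0.24 ± 0.27 at P7, with adjusted p of 0.94 and 0.56 (edgeR quasi-likelihood test, Benjamini-Hochberg). Rack1, a protein of the small ribosomal subunit, was 0.89 ± 0.19 higher on the log2 scale in P4 cKO (adjusted p = 0.022). Next per length came Snord104, at 75.6 CPM per kb, and Snord4a, at 71.1.

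Before the genotypes are compared, the libraries need a word. Between the P7 WT libraries, counts varied little beyond sampling error (a chi-square of 1.98 for each degree of freedom over all genes and of 1.50 per snoRNA gene, against 23.5 to 122.9 and 2.86 to 18.4 in the other pairs of a group), so they were summed and counted as 1 sample. The P7 WT group thus had no measured spread of its own and was assumed to vary like the others. Other groups differed more within themselves. Of 45 snoRNA genes with a sequence and at least 200 reads, 7 differed over 2-fold between the P4 WT libraries and 0 between the P7 WT libraries. P7 cKO library 1 was the highest of its group in 24 of the 45 and the lowest in 17.

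Library 1 of P7 cKO departed from libraries 2 and 3 in much the way that library 1 of P4 WT departed from library 2. Snora81, in Eif4a2, stood at 0.18 CPM in P7 cKO library 1 against 2.46 and 3.16 in the others, and at 1.06 against 2.15 in P4 WT. Snora69, in Rpl39, stood at 2.22 against 0.25 and 0.36 in P7 cKO and at 1.32 against 0.71 in P4 WT. Across the 45 genes Pearson's r between the differences was 0.65 and Spearman's rho 0.65. The points are genes of the same libraries and share their depth, so the values describe these libraries only.

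**Figure D1:**
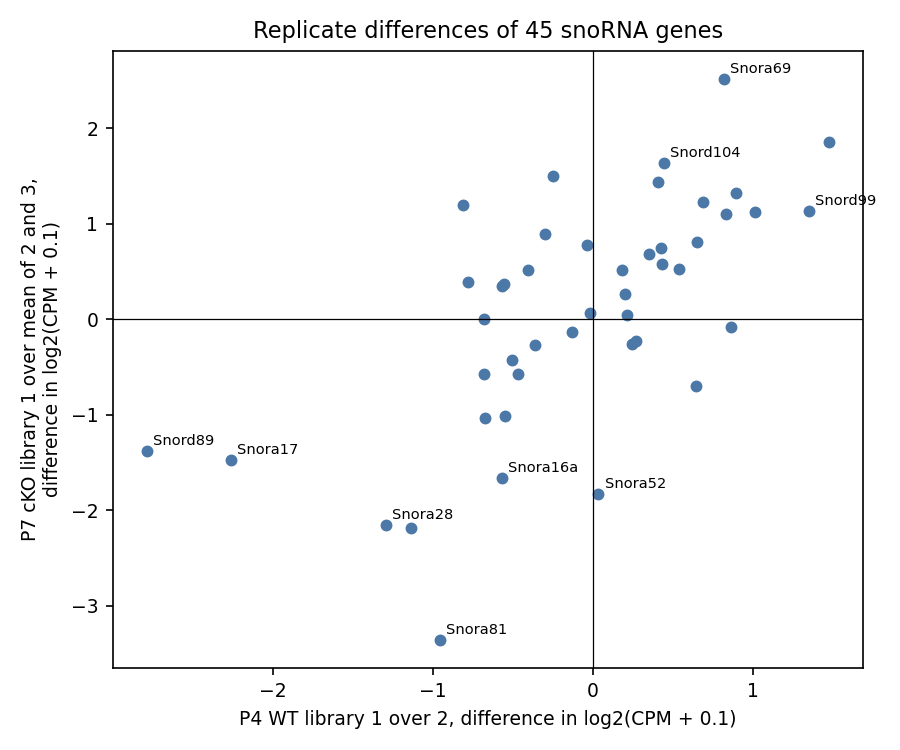
Each point is 1 of 45 snoRNA genes, placed by the difference in log2(CPM + 0.1) between P4 WT libraries 1 and 2 (horizontal) and between P7 cKO library 1 and the mean of libraries 2 and 3 (vertical). Snora81, Snora28, Snora17 and Snord89 lie low on both axes and Snora69 high on both, with Pearson's r of 0.65 over the genes.

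The summed level of the 94 genes was higher in the P7 WT sample than in any other sample. It was 117.4 and 104.2 CPM in P4 WT, 112.0, 95.1 and 97.8 in P4 cKO, 136.2 and 136.5 in the P7 WT libraries and 124.3, 97.3 and 92.3 in P7 cKO. The P4 genotypes overlapped, at 101.6 ± 9.11 CPM (SD, n = 3) in cKO against 110.8 ± 9.34 (n = 2) in WT, with an exact two-sided permutation p of 0.4 where 0.1 is the smallest possible. At P7, cKO stood at 104.6 ± 17.2 CPM (n = 3) against 136.4 in the WT sample (n = 1), a ratio of 0.767, and the exact permutation p of 0.25 was the smallest that this design allows. From P4 to P7 the sum moved 1.23-fold in WT (exact permutation p = 0.333, the smallest possible) and 1.03-fold in cKO (exact permutation p = 0.9, smallest 0.1).

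Both classes had the same order of samples at P7. Box C/D genes summed to 78.6 CPM in P7 WT and to 62.9 ± 9.98 (n = 3) in P7 cKO, a ratio of 0.800, and box H/ACA genes to 57.8 and 41.7 ± 7.27, a ratio of 0.722. Split by host, genes within protein-coding hosts other than ribosomal protein genes had a ratio of 0.593 (33.9 ± 0.970 CPM in cKO against 57.2 in WT), genes within ribosomal protein genes 0.823, and genes within noncoding hosts 0.798. In the first of these the P7 cKO libraries all lay below the WT sample, at 34.4, 34.6 and 32.8 CPM, while in ribosomal protein genes cKO library 1, at 50.6, lay above both WT libraries, at 48.3 and 50.1. Much of the difference in the first class came from a few genes with high levels. Snora81 went from 8.76 CPM in P7 WT to a mean of 1.93 in P7 cKO, and Snora41 from 6.14 to 1.73. Snora31, of the same class, went up from 4.46 to 5.55.

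**Figure D2:**
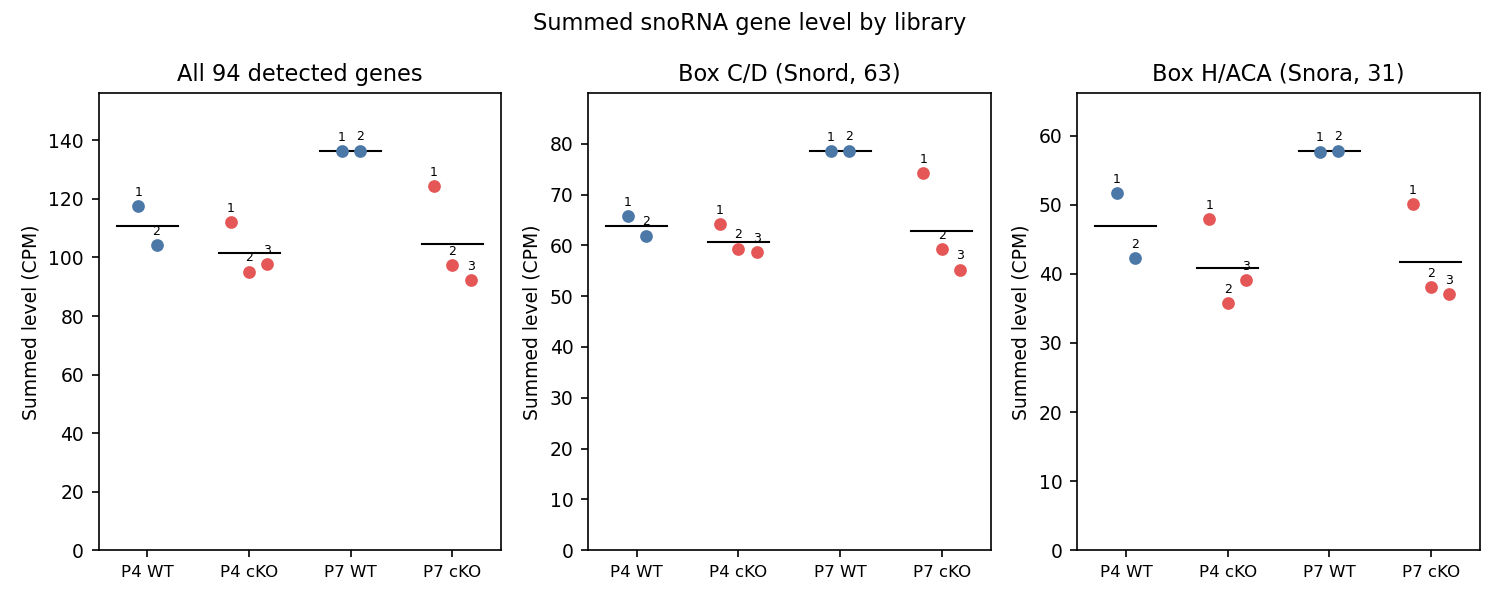
Summed level in CPM (TMM scaled) of all detected snoRNA genes, of box C/D genes and of box H/ACA genes, with 1 numbered point per library and a line at the group mean of the libraries. The P7 WT libraries, at 136.2 and 136.5 CPM for all genes and counted as 1 sample, lie above the other libraries in each panel, and P7 cKO library 1 lies above libraries 2 and 3.

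At P4, no snoRNA gene passed the test between genotypes. Of 70 tested, 0 had an adjusted p under 0.05 in edgeR and 8 had an unadjusted p under 0.05, beside 8.96% of all 18419 genes called, 4.84% higher and 4.13% lower. DESeq2 called 4 of the 70, beside 16.3% of all genes. The median log2 fold change of the snoRNA genes was 0.14, against 0.00 for all genes tested. With library totals in place of TMM factors these medians were -0.01 and -0.16, and 528 genes of the whole table were called higher and 1544 lower, beside 891 and 760. Groups did not overlap for 20 of the 70, of which 10 were higher in cKO and 10 lower, beside 24.1% and 25.6% of all genes.

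The genes named here at P4 went in both directions. Snord52, in the noncoding gene 1110038B12Rik, stood at 2.58 and 3.45 CPM in WT against 1.53, 0.79 and 1.55 in cKO, and its log2 fold change was -1.21 ± 0.37 (SE, adjusted p = 0.059). Snord22, in Snhg1, stood at 10.7 and 7.93 CPM in WT against 5.15, 4.96 and 4.85 in cKO (-0.90 ± 0.29, adjusted p = 0.071). Neither pair of groups overlapped, and neither gene passed the threshold. Snora75, in the nucleolin gene Ncl, had -1.25 ± 0.42 (adjusted p = 0.078). Snora3, in Rpl27a, went the other way, from 0.99 and 1.41 CPM in WT to 2.89, 2.09 and 2.79 in cKO (1.10 ± 0.36, adjusted p = 0.072). Snord49b was also higher in cKO without overlap, at 0.13 and 0.35 CPM in WT against 0.72, 0.75 and 0.84. So was Snord16a, at 0.70 and 1.65 CPM in WT against 2.08, 3.80 and 3.82 in cKO. Among the lowest values was also Snord14c (-1.40 ± 1.16), and among the highest Snord2 (1.94 ± 1.33). Snord98 had no read in either P4 WT library and 5, 0 and 5 reads in cKO, and it was not called. Its level in cKO was 2.10 times a floor of 3 reads over the summed WT libraries. The floor leaves out the spread of the cKO libraries, of which library 2 had no read either. Markers of other cells moved at P4 too: 2 of 4 Sertoli markers, Sox9 (1.06 ± 0.21) and Amh (0.88 ± 0.20), and 2 of 4 Leydig markers, Star (1.24 ± 0.26) and Insl3 (3.65 ± 0.85), were called higher in cKO, and 0 of the markers of germ, peritubular and stromal, macrophage and endothelial cells were called. Their part in the P4 values was not tested.

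At P7, 6 of 70 snoRNA genes passed the test, 5 lower in cKO and 1 higher. Among all genes tested 17.0% were called, 9.72% lower and 7.26% higher, so the share of snoRNA genes called was no larger than that of genes in general. The median log2 fold change was -0.25 for the snoRNA genes and 0.08 for all genes tested. With library totals they were -0.14 and 0.19, and the whole table had 1744 genes called higher and 1402 lower, beside 1338 and 1791. The lower genes were Snord4a, Snora41, Snord69, Snord73a and Snord72. Each of the 5 lies in an intron, and 3 of them lie in genes of ribosomal proteins: Rpl23a, Rps3a1 and Rpl37.

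Snord4a (chr11:78181686-78181756, GRCm38, minus strand, in an intron of Rpl23a) stood at 9.34 and 9.46 CPM in the P7 WT libraries against 4.74, 2.44 and 4.01 in P7 cKO. All 3 cKO libraries lay below the WT libraries, and the log2 fold change was -1.34 ± 0.36 (SE, adjusted p = 0.030). At P4 the order was the same, at 7.51 and 5.54 CPM in WT and 3.47, 4.28 and 3.40 in cKO, without passing the threshold (-0.81 ± 0.31, adjusted p = 0.11).

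Snora41 (chr1:63179004-63179135, plus strand, in Eef1b2, which encodes an elongation factor subunit) stood at 6.33 and 5.95 CPM in P7 WT against 2.01, 1.21 and 1.99 in P7 cKO, a log2 fold change of -1.82 ± 0.39 (adjusted p = 0.014). Snord73a (chr3:86138791-86138858, minus strand, in Rps3a1) stood at 3.96 and 4.73 CPM in P7 WT against 1.40, 0.95 and 1.14 in P7 cKO (-1.90 ± 0.43, adjusted p = 0.016). Both were low in all 8 other libraries, between 0.95 and 3.09 CPM, so the P7 WT libraries stood apart from P4 WT as well as from cKO.

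Snord72 (chr15:5118404-5118484, plus strand, in Rpl37) had the same shape, at 3.40 and 2.65 CPM in P7 WT against 1.52, 0.63 and 1.12 in P7 cKO and 1.06 to 1.48 in the P4 libraries (-1.47 ± 0.46, adjusted p = 0.048). Its call was lost with library totals (adjusted p = 0.063), with no filter (0.051), with a minimum count of 50 (0.053) and in 8 of the 10 fits that each left out 1 library. Snord69 (chr14:31014287-31014366, minus strand, in Gnl3, which encodes nucleostemin) stood at 4.35 and 4.29 CPM in P7 WT against 0.85, 1.88 and 1.75 in P7 cKO (-1.52 ± 0.45, adjusted p = 0.039). The P4 libraries of Snord69 ranged from 2.37 to 3.67 CPM, so P7 WT lay above all of them and P7 cKO below. Its call was lost with library totals (adjusted p = 0.050, just over the threshold) and with exon length offsets (0.091).

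**Figure D3:**
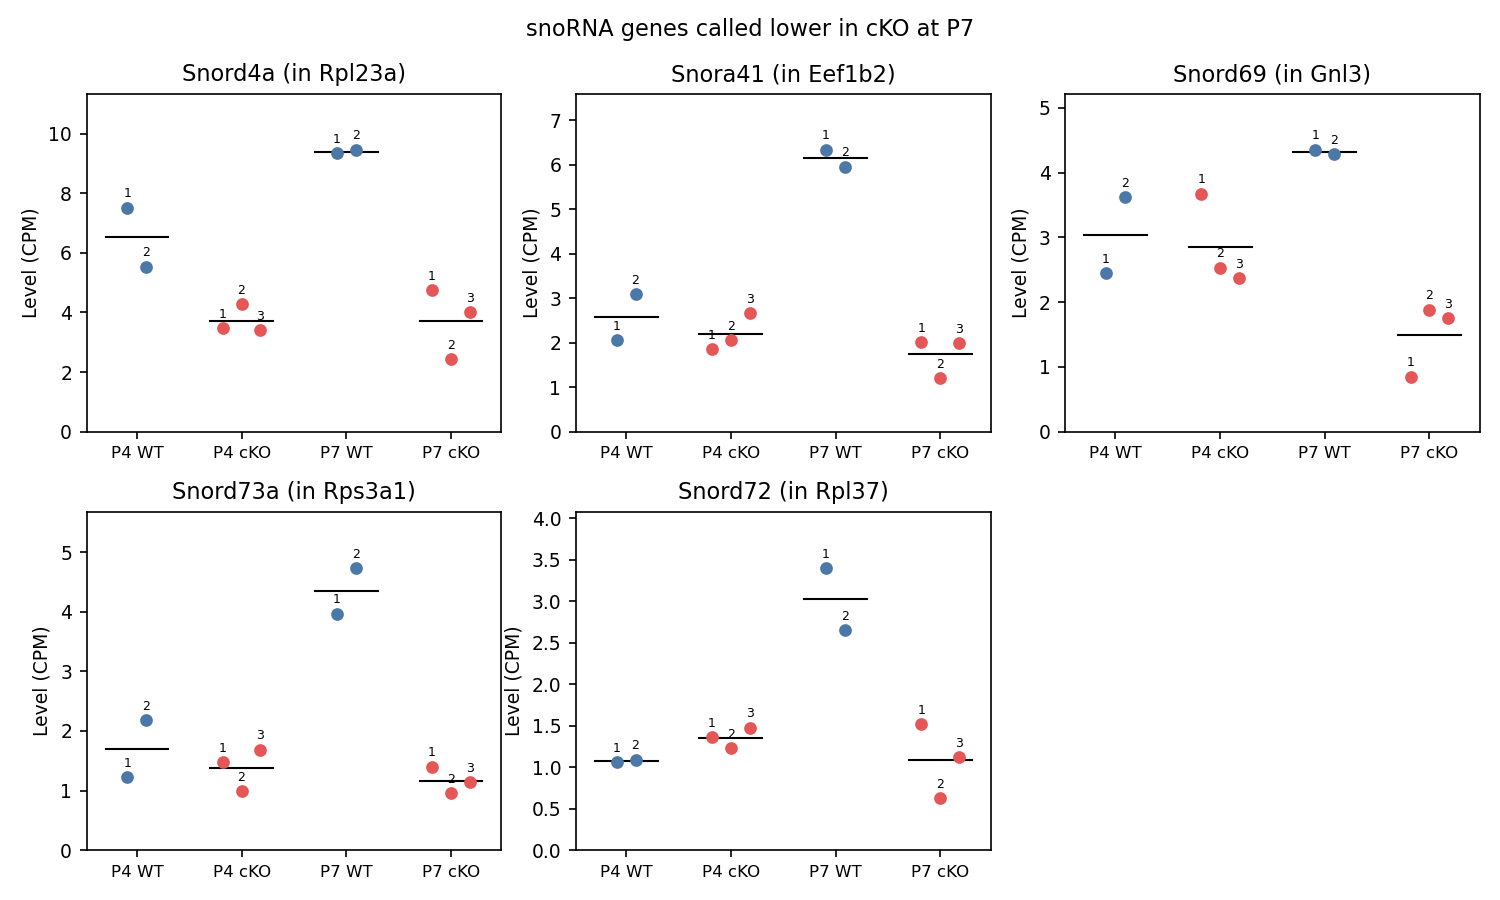
Level in CPM (TMM scaled) of the 5 snoRNA genes called lower in cKO at P7, with 1 numbered point per library and a line at the group mean. Snora41, Snord73a and Snord72 are high in the P7 WT libraries alone, Snord4a is also higher in P4 WT, and Snord69 is highest in P7 WT and lowest in P7 cKO.

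GC content moved with the P7 difference. The 5 lower genes had a GC content of 39.4% (Snord4a), 43.2% (Snora41), 42.5% (Snord69), 38.2% (Snord73a) and 29.6% (Snord72). Across the 69 tested genes with a sequence, Pearson's r between GC content and the log2 fold change was 0.51 and Spearman's rho 0.53. Among the 45 genes with at least 200 reads, r was 0.67. Below 45% GC, a limit set after the values were seen, 24 of 31 genes were lower in cKO, with a median log2 fold change of -0.69, and from 45% upward 20 of 38, with a median of -0.12. These are correlations across genes of the same libraries, which are not independent.

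Offsets that remove the dependence on GC content over all genes took the P7 calls away. With them, an alternative chosen after seeing the data, 0 of 70 snoRNA genes were called at P7, and so were 3 of 17989 genes in the whole table. The median of the snoRNA genes became -0.05 and r with GC content -0.04. Snord72 went to -0.05 (adjusted p = 0.97), Snord4a to -0.43 (0.62), Snord69 to -0.84 (0.42), Snord73a to -0.91 (0.32) and Snora41 to -1.20 (0.16), each with the sign it had. Whether the dependence on GC content came from the tissue or from the libraries was not tested. At P4 the genotype difference had an r with GC content of -0.10 over the 69 genes. Exon length offsets moved the P7 median of the snoRNA genes the other way, from -0.25 to -0.66. With them 7 of 70 were called at P7, all lower, beside 12.8% of all genes. The P4 median went from 0.14 to -0.10, with 4 called, all lower, beside 7.09% of all genes. Which offsets suit these genes was not tested.

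**Figure D4:**
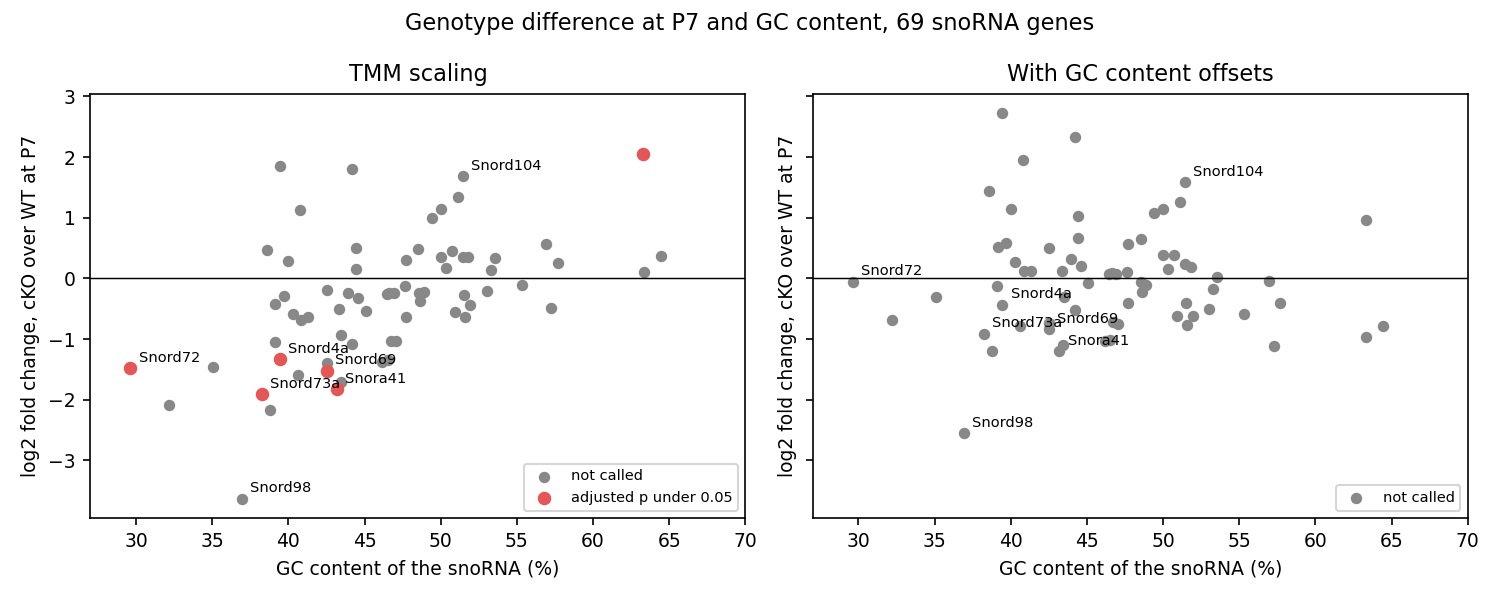
Log2 fold change of cKO against WT at P7 against GC content in percent, for 69 tested snoRNA genes with TMM scaling (left) and with GC content offsets (right). On the left the called genes Snord72, Snord73a, Snord4a, Snord69 and Snora41 lie low at GC contents from 29.6% to 43.2%, and on the right no gene is called.

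At P7, 1 of the 7 germ cell markers was called lower in cKO, Dazl (-1.11 ± 0.30, adjusted p = 0.028; -0.03 with GC content offsets). Of the 4 Sertoli markers, Amh (0.99 ± 0.26) was called higher and Sox9 (-0.82 ± 0.24) lower, and 0 of the markers of Leydig, peritubular and stromal, macrophage and endothelial cells were called. Calls also leaned on single libraries, in the whole table as among the snoRNA genes. Without P7 cKO library 2, 1 snoRNA gene was called at P7, beside 5.27% of all genes, without P4 cKO library 2, 2 were called (10.9%), and without P7 cKO library 1, 11 were called (26.9%). Fitted on the P7 samples alone, 0 snoRNA genes and 0 of 17832 genes in all were called. Over the 10 fits that each left out 1 library, Snora41 was called in 10, Snord73a in 9, Snord4a in 8, Snord69 in 7 and Snord72 in 2. The call of Snord73a was lost without P7 cKO library 2, that of Snord4a without that library or P4 cKO library 2, and that of Snord69 without either of them or P7 cKO library 3.

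Other genes named at P7 did not pass the threshold. Snora81, in Eif4a2, stood at 9.02 and 8.50 CPM in P7 WT against 0.18, 2.46 and 3.16 in P7 cKO (-2.16 ± 0.90, adjusted p = 0.12). Snord98, in Ccar1, had 7 and 26 reads in the P7 WT libraries and 0, 3 and 2 in cKO (-3.63 ± 1.22, adjusted p = 0.065). Snord104 stood at 2.62 and 2.04 CPM in P7 WT against 13.6, 5.85 and 3.16 in P7 cKO, so that 1 library held most of its difference (1.69 ± 0.67, adjusted p = 0.11). Of the other genes with high levels, Snora65, in Rpl12, had 0.56 ± 0.41, Snora31, in the tumour protein gene Tpt1, 0.31 ± 0.55, Snora43 0.34 ± 0.43 and Snora75 -1.05 ± 0.50. Snord83b, Snord95 and Snord15b were likewise not called.

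Hosts and their snoRNA genes were then set side by side in the same fit. At P7, 67 tested snoRNA genes had a tested host, in 50 hosts, of which 10 were called higher in cKO and 3 lower, beside 7.26% and 9.72% of all genes. The median log2 fold change was 0.48 over the 50 hosts and -0.27 over the snoRNA genes, and 57 of the 67 snoRNA genes had a lower value than their host. In 37 the directions were the same, in 27 the snoRNA gene was lower and the host higher, and in 3 the reverse held. At P4, 17 of 50 hosts were called higher and 0 lower, beside 4.84% and 4.13% of all genes. The medians were 0.44 and 0.10, and 46 of 67 snoRNA genes lay below their host. Pearson's r across the 67 pairs was 0.55 at P7 and -0.07 at P4, over pairs that share hosts and libraries.

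Snord4a was furthest from its host among the called genes. Rpl23a rose at P7 from 457.1 and 469.1 CPM in WT to 1084, 1283 and 1057 in cKO (1.30 ± 0.24, adjusted p = 0.0091) while Snord4a fell, so Snord4a had 20.4 and 20.2 reads per 1000 host reads in P7 WT and 4.37, 1.90 and 3.79 in P7 cKO. At P4 the same ratio was 8.96 and 5.73 in WT and 1.86, 2.04 and 1.75 in cKO, again with no overlap. Rpl37 also rose at P7 (0.97 ± 0.27, adjusted p = 0.034) against the fall of Snord72. Eef1b2 (0.34 ± 0.44), Rps3a1 (0.24 ± 0.29) and Gnl3 (-0.24 ± 0.27) were not called. With GC content offsets 0 of 47 hosts were called at P7, Rpl23a standing at 1.45 (adjusted p = 0.064), and 12 were called higher and 0 lower at P4.

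**Figure D5:**
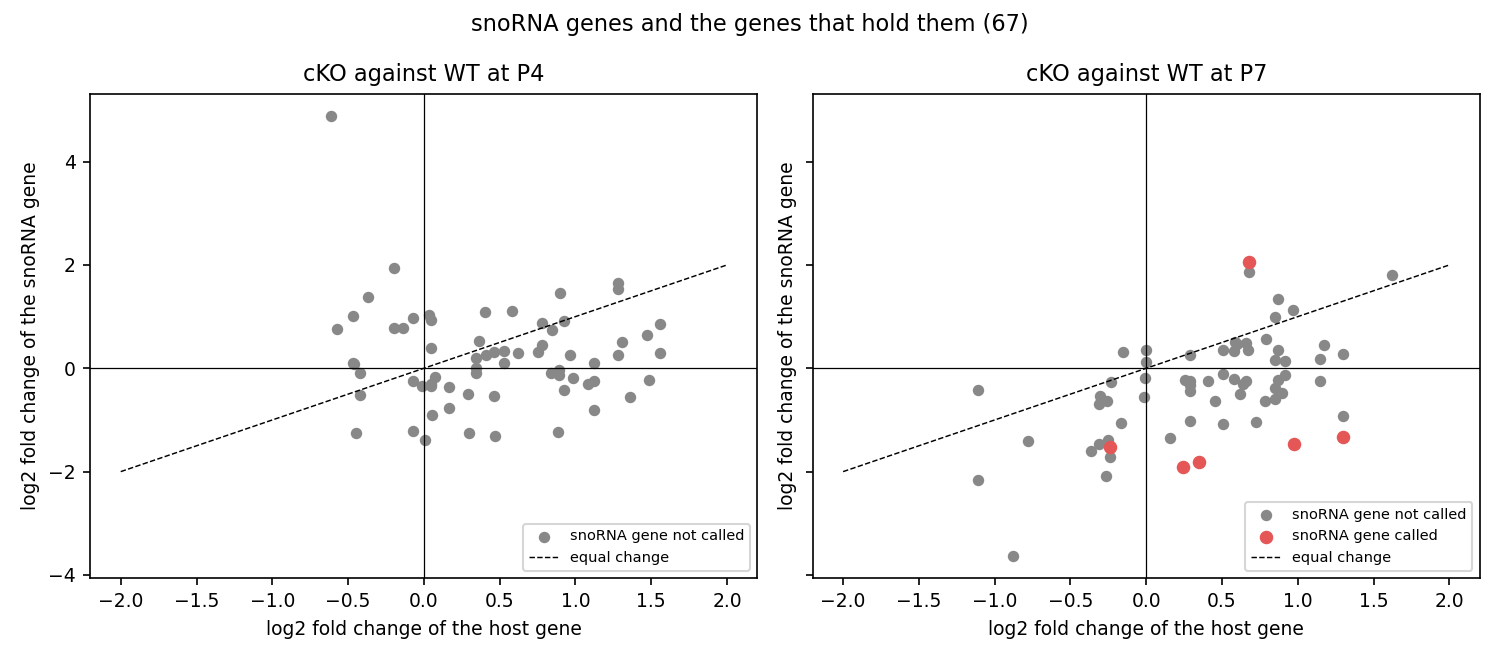
Log2 fold change of cKO against WT for the snoRNA gene (vertical) and for the gene that holds it (horizontal), 67 pairs at P4 (left) and P7 (right), with a dashed line where both are equal. At P7, 57 of 67 pairs lie below the dashed line, against 46 of 67 at P4, and the 5 genes called lower lie below it. The highest point at P4 is Snord98, which had no read in P4 WT, so that its fitted value there is no measure of size.

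Of the 12 hosts with at least 2 tested snoRNA genes, 4 held genes with fold changes of 1 sign at P7 and 8 of both signs. Values are given for the hosts with 3 or more, a comparison chosen after the values were seen. In Rpl23a, Snord42b had -0.93 ± 0.44 and Snord42a 0.28 ± 0.74 at P7 beside -1.34 for Snord4a. The values for Snord42b and Snord4a differ by less than the sum of their standard errors. Snord42a differs from each of them by more than that sum. In Rpl13a, Snord35a had 1.33 ± 0.68, Snord32a 0.36 ± 0.56 and Snord34 -0.23 ± 0.74. In Snhg12, Snora16a had -1.03 ± 0.70, Snora44 -0.44 ± 0.67, Snord99 -0.32 ± 0.61 and Snora61 0.26 ± 0.50. In 2410006H16Rik, Snord65 had -0.59 ± 0.79, Snord49a -0.38 ± 0.52 and Snord49b 0.15 ± 0.82. The differences between members of a host were not tested, and most lie within their standard errors.

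From P4 to P7 in WT, 2 of 70 snoRNA genes passed the test, both higher, beside 21.8% of all genes (11.8% higher and 9.97% lower). The medians were 0.48 and -0.03. Snora20, in Tcp1, which encodes a subunit of a chaperonin, had 3 and 2 reads in the P4 WT libraries and 15 and 35 in the P7 WT libraries (3.41 ± 0.95, adjusted p = 0.027). Snord98 had 0 reads in P4 WT and 33 in P7 WT (adjusted p = 0.031). Its P7 WT level, 0.572 CPM, was 12.2 times a floor of 3 reads over the summed P4 WT libraries. Among the lowest in fold change was Snord68 (-1.09 ± 1.04), which was not called. Snora20 and Snord98 rest on few reads, and with GC content offsets 0 of 70 were called. With library 1 or 2 of P4 WT left out, neither passed, at an adjusted p of 0.099 and 0.095 for Snora20 and 0.12 and 0.083 for Snord98. Snora20 also failed when P7 WT library 2 was left out (0.087). The log2 fold change had an r with GC content of -0.35 over the 69 genes with a sequence, the opposite sign to the genotype difference at P7, with which it shares the P7 WT sample.

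From P4 to P7 in cKO, 1 of 70 passed, beside 29.2% of all genes (14.5% higher and 14.7% lower). Snord52 went from 1.53, 0.79 and 1.55 CPM at P4 to 3.31, 2.11 and 2.48 at P7, with no overlap (1.02 ± 0.33, adjusted p = 0.040). It was also called with GC content offsets, but not without P4 cKO library 1, 2 or 3 or P7 cKO library 1 or 3 (adjusted p from 0.061 to 0.14). Its level in WT was 2.58 and 3.45 CPM at P4 and 3.11 and 3.13 at P7. With library totals the whole table had 3907 genes called higher and 1818 lower in this course, beside 2663 and 2709. Samples did not overlap for 9 of the 70, 4 higher and 5 lower at P7, beside 22.9% and 23.2% of all genes. Snord16a, in Rpl4, was lowest in fold change, at -1.47 ± 0.55 (adjusted p = 0.068), followed by Snord98 at -1.09 ± 1.19. The highest were Snord14c at 1.77 ± 1.02, in the heat shock gene Hspa8, and Snora74a at 1.32 ± 1.00, in Snhg4, and none of these was called. Of the 7 germ cell markers, 5 were called higher at P7 in WT and 6 in cKO; Gfra1 was called in neither (0.12 ± 0.46 and 0.16 ± 0.30). All 3 endothelial markers (Pecam1, Cdh5, Tek) were called lower in both genotypes, and in cKO 2 of 4 Leydig, 2 of 4 peritubular and stromal and 2 of 3 macrophage markers were called lower. The part of these markers in the results was not tested.

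The test of whether the genotype difference changed between the stages called 0 of 70 snoRNA genes in edgeR, with 10 at an unadjusted p under 0.05, beside 0.00% of all genes. DESeq2 also called 0 of the 70, but 9.04% of all genes, so the tools differ over the whole table. Snora81 had an interaction of -2.94 ± 1.25 and Snord68 of 2.34 ± 1.25, neither past the threshold, and no fold is given for Snord98, which had no read in P4 WT. The P7 calls are thus not shown to differ from P4.

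Some of the proteins that bind snoRNAs were called higher in cKO, and others were not. Of the 8 core proteins, 3 were called higher in cKO at P4 and 0 lower, beside 4.84% and 4.13% of all genes: Fbl (0.80 ± 0.18, adjusted p = 0.026), the methyltransferase of box C/D particles, Nhp2 (1.17 ± 0.21, 0.016) and Nop10 (1.17 ± 0.27, 0.027), both of box H/ACA particles. At P7, where 17.0% of all genes were called, 2 were, Fbl (1.03 ± 0.24, 0.017) and Nhp2 (1.03 ± 0.27, 0.028). The medians of the 8 were 0.69 and 0.48. Nop56 and Nop58 had the highest levels of the 8 at P4 and were not called. Nop58 stood at 281 and 232 CPM in P4 WT against 169, 209 and 181 in P4 cKO. Summed, the 8 overlapped at P4, at 1027 and 819 CPM in WT against 827, 969 and 912 in cKO. At P7 they summed to 840 and 841 CPM in the WT libraries against 1223, 1038 and 971 in cKO. Of 13 assembly and maturation factors, Ruvbl1 (0.93 ± 0.25, adjusted p = 0.041) was called at P4. At P7, Ruvbl2 (1.26 ± 0.23) and Pih1d1 (1.20 ± 0.26), parts of the chaperone complexes that assemble box C/D particles, were called higher, and Naf1 (-1.26 ± 0.27), an assembly factor of box H/ACA particles, and Tgs1 (-1.11 ± 0.18), which modifies the cap of small RNAs, were called lower, 4 of 13 in all. Of 12 tested noncoding hosts, 0 were called at P4 and Snhg15 alone at P7 (1.67 ± 0.48, adjusted p = 0.036). The scaRNA genes, guides for modification of spliceosomal RNAs, had 9 rows, of which 2 were tested and 0 called in either comparison of genotypes. With GC content offsets, Fbl, Nhp2 and Nop10 were called at P4 (adjusted p = 0.048, 0.036 and 0.034) and Ruvbl1 was not (0.067), and at P7 none of Fbl (0.84, adjusted p = 0.13), Nhp2, Ruvbl2, Pih1d1, Naf1, Tgs1 and Snhg15 was called.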

How the data were processed

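The authors deposited raw read counts per gene, as the whole numbers and the file headers show. The submitters' processing notes list Trim Galore 0.6.10, STAR 2.7.11a, SAMtools 1.6 and featureCounts from Subread 2.0.6, and build GRCm38. The annotation release, the strand setting and the treatment of multi-mapped reads were not given in the sources used here, and members with near-identical copies or overlapping genes are therefore uncertain. The members and the gene lists were chosen with earlier results of these data known.

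Counts were fitted over all genes with edgeR 4.0.16 in R 4.3.3 (TMM factors, filterByExpr with a minimum count of 10, robust quasi-likelihood F test, 1 mean per group, Benjamini-Hochberg adjustment over 18419 genes, threshold 0.05). The fit had 9 samples, 5 residual degrees of freedom and a common biological coefficient of variation of 0.228. A standard error (SE) is the log2 fold change over the square root of its F value. Sums were compared by exact two-sided permutation tests over samples. Hosts are genes on the same strand whose span holds the snoRNA gene. Named genes are those past the threshold in any comparison, the 12 with the highest level, the 2 highest and 2 lowest fold changes of each comparison, a short list of well-known snoRNAs, their hosts and the lists of the pathway. Some genes that met this rule are not reported here. Others were named after their values were seen. The scripts were tested on simulated data. Alternatives were RLE factors, library totals, other filters, DESeq2 1.42.0, the libraries kept apart, a replicate block, groups fitted alone, length or GC content offsets, and each library left out in turn. Replicate numbers were not used to pair the samples in the main fit. Correlations of same-numbered libraries ran from -0.16 to 0.31, the highest between P4 WT library 1 and P7 cKO library 1. Whether those libraries share a feature of handling was not tested.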

Additional observations from a re-analysis of the deposited data

How the results depend on the processing

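The count of called snoRNA genes, given in the order P4 genotype, P7 genotype, WT course, cKO course and interaction, was 0, 6, 2, 1 and 0 of 70. Of all genes, 8.96%, 17.0%, 21.8%, 29.2% and 0.00% were called. The count of snoRNA genes moved by over 1.5 times in several settings. Percentages in brackets below are the shares of all genes called. At P4 the count was 2 with library totals (11.2%), 4 with DESeq2 (16.3%) and 3 of 67 with the 10 libraries kept apart (16.4%). It was 7 of 60 with the groups fitted alone (19.1%) and 4 with exon length offsets (7.09%). At P7 it was 0 with the groups fitted alone (0.00%) and 0 with GC content offsets (0.0167%), which were chosen after seeing the data. In the WT course it was 0 of 37 with a minimum count of 50 (25.8%), 5 with DESeq2 (26.8%) and 13 of 67 with 10 libraries (41.4%). There it was also 11 of 64 with the groups alone (28.1%), 4 with length offsets (21.8%) and 0 with GC content offsets (15.9%). In the cKO course it was 3 with DESeq2 (32.8%) and 3 with 10 libraries (35.9%), and the interaction was 4 with 10 libraries (17.6%). Whether the replicate numbers pair the samples is not known. With these numbers as a block over 10 libraries the counts were 2, 10, 13, 3 and 4 of 67. They stood beside 15.5%, 42.3%, 44.4%, 38.1% and 24.5% of all genes. With each library left out in turn they ran from 0 to 7, 1 to 11, 0 to 11, 0 to 1 and 0 to 2. The highest of these at P4, at P7, in WT and for the interaction came without P7 cKO library 1. In that fit 22.7%, 26.9%, 34.5% and 7.94% of all genes were called. In WT the count fell without P4 WT library 1 or P7 WT library 2, and either fit left 1 library in a group. In cKO 0 were called without P4 cKO library 1 (24.3%), P4 cKO library 2 (19.1%) or P7 cKO library 3 (25.7%). The log2 ratio of the summed level lay between -0.21 and -0.036 at P4, and between -0.52 and -0.30 at P7, with libraries left out, and in the cKO course it turned from 0.04 to -0.10 without P7 cKO library 1 and to -0.004 without P4 cKO library 2, with 0.12 as the highest.

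Some named genes with values near 0 reversed. With exon length offsets Snora31 went to -0.26, Snora43 to -0.086 and Snora61 to -0.14 at P7 and Snord104 to -0.085 at P4. With GC content offsets, at P7, Snora61 went to -0.41, Snora65 to -0.038, Snord52 to 0.32, Snord65 to 0.26, Snord96a to 0.070 and Snord99 to 0.20, and at P4 Snord69 went to 0.0097. With the replicate block Snord49b went to -0.072 at P7 and Snord96a to 0.042 at P4. With libraries left out, the P7 values covered -0.29 to 0.54 for Snora31, -0.78 to 0.046 for Snora44, -0.12 to 0.51 for Snora61, -0.79 to 0.035 for Snord34, -0.057 to 0.80 for Snord42a and -0.11 to 0.54 for Snord49b. The P4 values covered -0.50 to 0.094 for Snora41, -0.046 to 0.41 for Snord104, -0.34 to 0.22 for Snord69 and -0.14 to 0.036 for Snord96a. At P7 the sign of Snord4a, Snora41, Snord69, Snord73a and Snord72 held in each of these settings, for Snord72 at only -0.05 with GC content offsets. These genes were picked by their P7 test in the same libraries, so their sign gives no separate support. The cause of the reversals was not tested. Of the 94 genes 27 had under 50 reads in all, and filterByExpr with a minimum count of 50 left 37 for the test.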
